A study of Homo sapiens with 8 samples.

Results

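The 9 genes described here encode enzymes that make, convert and clear androgens and estrogens. They are the ketosteroid reductases AKR1C1, AKR1C2 and AKR1C3, the 5-alpha reductases SRD5A1, SRD5A2 and SRD5A3, the 3-beta-hydroxysteroid dehydrogenases HSD3B1 and HSD3B2, and aromatase, CYP19A1. They were taken by name from a table of 57773 genes, in which each of the 9 names had 1 row. RNA came from ZR-75-1, an established human breast cancer line that carries the estrogen receptor. Cells stood for 72 h in medium with 5% charcoal-stripped serum and no phenol red. Estradiol (E2, 10 nM) was then given for 4 h, either alone or with dihydrotestosterone at the same 10 nM (E2+DHT), with 4 libraries per treatment. All groups received E2 and no untreated arm is analysed here, so the values show what DHT adds to E2 and not what E2 does.

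In the classical pathway, HSD3B enzymes turn early steroids such as dehydroepiandrosterone into androstenedione, AKR1C3 reduces androstenedione to testosterone, and SRD5A1 and SRD5A2 reduce testosterone to dihydrotestosterone, the stronger androgen. AKR1C2 reduces dihydrotestosterone to a weak androgen, AKR1C1 acts mainly on progesterone, and aromatase turns androgens into estrogens. SRD5A3 also serves the synthesis of dolichol, the lipid carrier on which N-glycans are built. In breast tissue these enzymes set how much active androgen and estrogen a cell holds.

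Title and library name disagree about the treatment in 4 of the 8 records. Groups and replicate numbers follow the library name, which heads each column of values. The passage field follows the titles, in which numbers 1 to 4 have passages 8, 9, 10 and 11 under either treatment. Joined to the library names record by record, it gives passages 8 and 10 to E2 and 9 and 11 to E2+DHT, and on that reading passage and treatment cannot be told apart. Libraries of different passages would be different cultures, but whether those of the same passage and treatment were is not said, so part of the spread behind the p-values may be technical. Library sizes, recovered from the steps in the values, were 19955045 to 31913885 reads for E2 and 19599217 to 34616639 for E2+DHT. The 10 luminal markers, among them ESR1, GATA3 and KRT8, were all above the test minimum, with summed levels of 2197 to 2948 RPKM in E2 and 2574 to 2932 in E2+DHT. Summed markers of basal, immune, endothelial and liver cells stayed under 1 RPKM in each library, those of prostate reached 1.15 and those of fibroblasts 1.31, mostly from COL1A1. Of the adrenal and placenta markers, CSH1 was at 0 and CGA, a hormone subunit, was at 19.6 ± 1.47 RPKM in E2 and 20.7 ± 0.325 in E2+DHT (SD, n = 4 per group), with overlap.

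The starts of the AKR1C genes resemble each other, and their sequences are shown here. A separate likeness, that of the transcripts, limits how reads can be assigned to AKR1C1 and AKR1C2 and is given below. RefSeq promoters (GRCh38.p14, 250 bases before to 50 bases after a start, 5′ to 3′ on the gene's strand) were found for all 9 genes. Those of AKR1C1 (chr10:4963165-4963464, plus strand), AKR1C2 (chr10:5003808-5004107, minus strand) and AKR1C3 at its first start (chr10:5048531-5048830, plus strand) and second start (chr10:5094164-5094463, plus strand) follow. Capitals mark the longest run of letters common to these 4 sequences. The promoter of SRD5A1 (chr5:6633190-6633489, plus strand), which lacks this run, is given for contrast.
AKR1C1: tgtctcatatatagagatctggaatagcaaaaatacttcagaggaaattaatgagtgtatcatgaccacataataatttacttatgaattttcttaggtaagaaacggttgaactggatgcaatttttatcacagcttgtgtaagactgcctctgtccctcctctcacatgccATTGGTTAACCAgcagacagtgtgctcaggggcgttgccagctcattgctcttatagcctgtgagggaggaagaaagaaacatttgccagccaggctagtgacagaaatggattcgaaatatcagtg
AKR1C2: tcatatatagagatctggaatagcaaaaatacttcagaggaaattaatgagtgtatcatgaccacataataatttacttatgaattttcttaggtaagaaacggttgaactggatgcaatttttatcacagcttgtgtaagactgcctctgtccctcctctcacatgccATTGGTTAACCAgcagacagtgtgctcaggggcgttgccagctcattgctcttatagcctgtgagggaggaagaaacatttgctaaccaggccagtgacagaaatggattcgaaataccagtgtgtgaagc
AKR1C3, first start: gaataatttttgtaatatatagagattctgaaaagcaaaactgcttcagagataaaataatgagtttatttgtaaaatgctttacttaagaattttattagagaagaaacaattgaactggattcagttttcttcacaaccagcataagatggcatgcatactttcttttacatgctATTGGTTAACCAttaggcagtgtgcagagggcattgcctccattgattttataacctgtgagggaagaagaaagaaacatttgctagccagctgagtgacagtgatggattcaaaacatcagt
AKR1C3, second start: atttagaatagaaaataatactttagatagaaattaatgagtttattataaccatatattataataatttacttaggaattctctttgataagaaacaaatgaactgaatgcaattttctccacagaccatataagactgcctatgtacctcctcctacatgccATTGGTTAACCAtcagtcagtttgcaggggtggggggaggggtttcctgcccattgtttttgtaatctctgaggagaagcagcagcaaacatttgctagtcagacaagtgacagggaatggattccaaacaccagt
SRD5A1: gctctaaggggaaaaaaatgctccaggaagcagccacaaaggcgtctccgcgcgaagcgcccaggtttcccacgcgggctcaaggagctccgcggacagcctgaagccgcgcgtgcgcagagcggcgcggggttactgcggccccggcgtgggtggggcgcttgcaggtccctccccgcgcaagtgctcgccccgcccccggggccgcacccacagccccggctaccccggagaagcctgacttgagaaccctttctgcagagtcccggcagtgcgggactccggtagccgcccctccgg

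The AKR1C1 and AKR1C2 promoters were identical at 288 of 292 aligned bases (98.6%), whereas AKR1C3 at its first start matched AKR1C1 at 227 of 291 (78.0%) and AKR1C2 at 220 of 283 (77.7%). The common run ATTGGTTAACCA has 12 bases and holds a CCAAT box on the opposite strand. It starts 77 bases before the start of AKR1C1, 81 before that of AKR1C2 and 73 and 86 before those of AKR1C3. On either strand it occurs in 5 of 35116 RefSeq promoters (0.0142%), the 4 shown and that of PPFIA2. The run was chosen from the 4 shown, so those 4 matches were given in advance. The core letters of the antioxidant response element, TGACNNNGC, were searched on both strands and are absent from these 4 windows and present in 13.3% of all promoters. AGAACA, a part of the androgen receptor palindrome, was searched likewise, is also absent from the 4 and is present in 14.8% of all promoters. Most promoters lack either motif, so these absences say little. The AKR1C promoters are poor in G and C, with 41.0% in AKR1C1, 41.3% in AKR1C2 and 33.7% in AKR1C3 at its first start, against 71.0% in SRD5A1, 62.0% in SRD5A3 and a median of 58.7% over all promoters.

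The 9 genes spanned more than 3 orders of magnitude in level. Mean RPKM (reads scaled to exon length and library size) over the 8 libraries was 4.44 for SRD5A1 and 4.24 for SRD5A3, and their ranges overlapped (4.01 to 4.92 and 3.43 to 5.52). AKR1C3 followed at 0.640, with a range of 0.251 to 1.17 that overlapped neither neighbour. AKR1C2 had a mean of 0.0598 RPKM, and SRD5A2 (0.0254) and AKR1C1 (0.0211) came next, and the ranges of neighbours in this order overlapped from AKR1C2 downward. HSD3B2 (0.00997), HSD3B1 (0.00508) and CYP19A1 (0.00129) were at or near 0. Only SRD5A1, SRD5A3 and AKR1C3 reached the mean of 0.5 RPKM required for the test, and the other 6 were below it.

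**Figure D1:**
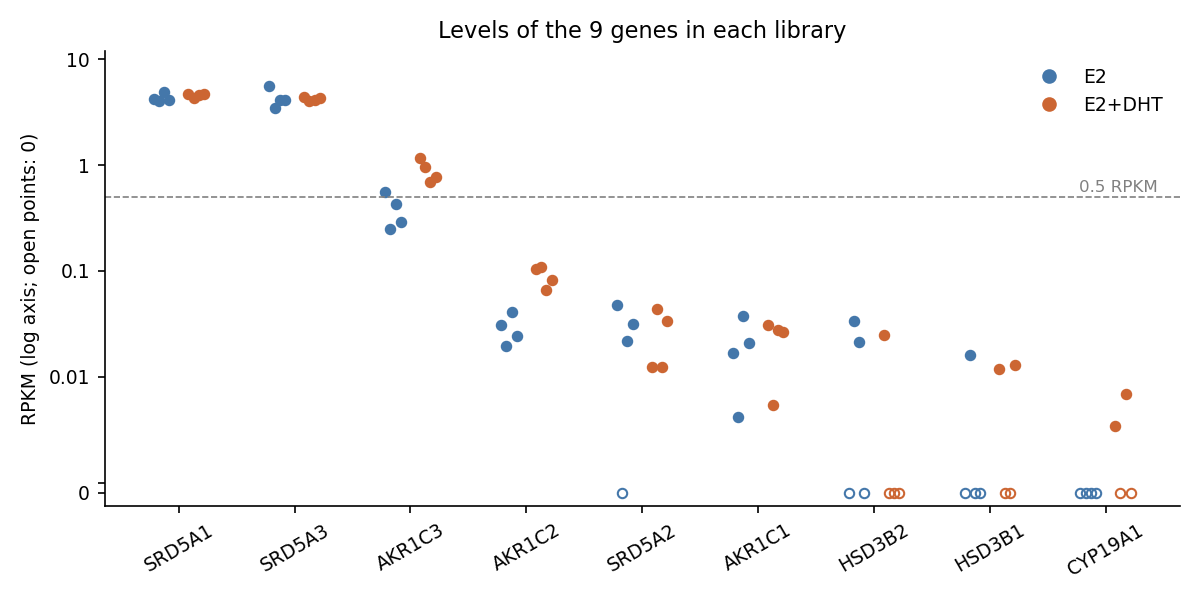
RPKM of each of the 9 genes in each library on a log axis, genes ordered by their mean over the 8 libraries, with E2 libraries in blue, E2+DHT libraries in orange and values of 0 as open points at the bottom. SRD5A1 and SRD5A3 lie between 3.43 and 5.52 in both treatments, AKR1C3 and AKR1C2 are higher in all E2+DHT libraries, and HSD3B1, HSD3B2 and CYP19A1 are mostly at 0.

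AKR1C3, the reductase that makes testosterone and also prostaglandin F, was more abundant in every library with DHT. It had 0.553, 0.251, 0.431 and 0.291 RPKM in E2 replicates 1 to 4, from 80, 29, 39 and 27 reads. It had 1.17, 0.957, 0.691 and 0.775 RPKM in E2+DHT replicates 1 to 4, from 184, 85, 108 and 112 reads. The lowest E2+DHT library lay above the highest E2 library, and replicate 1 was the highest of both treatments. Such a gap upward was seen in 1.98% of tested genes and a gap downward in 1.42%, the latter in 0 of the 3 tested enzymes. The means were 0.382 ± 0.138 and 0.899 ± 0.214 RPKM (SD, n = 4 per group), a ratio of 2.36.

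The difference in AKR1C3 did not pass the test across all genes, which had no replicate block. Its log2 fold change on log2(RPKM + 0.5), a scale that understates the change of low genes, was 0.67 (standard error 0.134, limma, unadjusted p = 0.000535, Benjamini-Hochberg adjusted p = 0.120). By unadjusted p it stood at place 50 of 11375 tested genes, of which 21 (0.185%) passed the threshold of 0.05. Of the 3 tested enzymes 0 passed, and 1, AKR1C3, had an unadjusted p under 0.05, as had 327 genes (2.87%) in the upward direction and 4.47% of genes in either. On whole reads recovered from the RPKM values, limma's voom without a block gave a log2 fold change of 1.23 (adjusted p = 0.105), and again 0 of these enzymes passed. With the replicate number as a block AKR1C3 passed (limma adjusted p = 0.01575), as 1 of 72 genes that did among 11375 tested. With the block in voom on genes of at least 10 reads its limma adjusted p was 7.5e-05, and 184 of 18141 genes passed. Its call therefore turned on the block, and the replicate numbers were not taken as a pairing. AKR1C3 entered the test only through its level with DHT, since its E2 mean lies under 0.5 RPKM. In bulk RNA, fewer cells that express a gene and less of it per cell cannot be told apart.

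**Figure D2:**
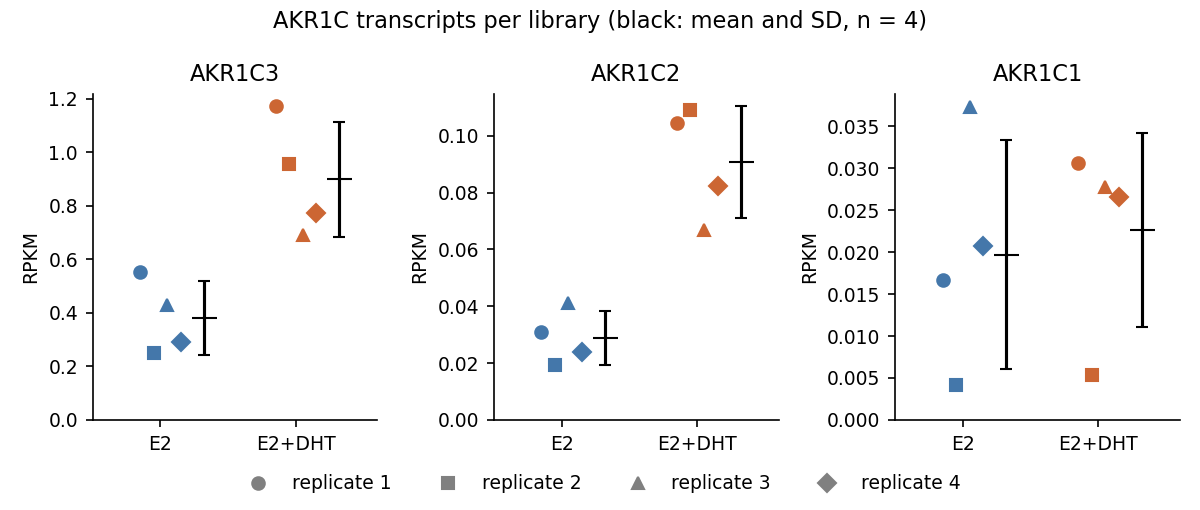
RPKM of AKR1C3, AKR1C2 and AKR1C1 in each library, 1 panel per gene with its own axis from 0; symbols give the replicate number, and black bars the mean and SD of 4 libraries. The treatments do not overlap for AKR1C3 (0.251 to 0.553 against 0.691 to 1.17) or AKR1C2 (0.0194 to 0.0412 against 0.0667 to 0.109), and they overlap for AKR1C1.

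AKR1C2, which inactivates dihydrotestosterone by reducing its 3-keto group, was rare and showed a similar separation. Its level was 0.0309, 0.0194, 0.0412 and 0.0241 RPKM in E2 replicates 1 to 4 and 0.104, 0.109, 0.0667 and 0.0824 RPKM in E2+DHT replicates 1 to 4. These values rest on 6, 3, 5 and 3 reads with E2 and on 22, 13, 14 and 16 reads with E2+DHT. Each E2+DHT library exceeded each E2 library, which held for 1.77% of the 6766 genes under the minimum with at least 10 reads in total. Summed over libraries, 17 reads stood against 65, a ratio of 3.10 per library read with an exact 95% binomial interval of 1.80 to 5.64 that covers counting error only. A voom fit of the 18141 genes with at least 10 reads, 0.176% of which passed, gave AKR1C2 a log2 fold change of 1.53 (limma voom, adjusted p = 0.182), which did not pass.

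AKR1C1, the close copy of AKR1C2 that reduces progesterone, had 0.0166, 0.00417, 0.0372 and 0.0207 RPKM in E2 replicates 1 to 4. It had 0.0307, 0.00541, 0.0277 and 0.0266 RPKM in E2+DHT replicates 1 to 4, and the treatments overlapped. Summed reads were 17 with E2 and 28 with E2+DHT, a ratio of 1.34 (exact 95% binomial interval 0.706 to 2.60), which this depth does not separate from 1. The longest open reading frames of AKR1C1 and AKR1C2 in GENCODE 29 were identical at 953 of 972 bases (98.0%). Of the 100-base stretches in their transcripts, 1462 were common to both, which is 16.5% of those of AKR1C1 and 22.1% of those of AKR1C2. AKR1C2 shared 72 stretches with AKR1C3, 1.09% and 1.48% of each gene's own. Reads of 100 bases can therefore be split between AKR1C1 and AKR1C2, whose separate values are uncertain, and the part of reads passed between AKR1C2 and AKR1C3 was not tested.

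Taken as 1 pool, the 3 genes had 91, 33, 51 and 34 reads in E2 replicates 1 to 4 and 216, 99, 131 and 136 in E2+DHT replicates 1 to 4. AKR1C3 made up 83.7% of the pool with E2 and 84.0% with E2+DHT, so the pool follows AKR1C3. In RPKM the sum of the 3 was 0.275 to 0.601 with E2 and 0.786 to 1.31 with E2+DHT, without overlap. This sum is a description, since its size is set by AKR1C3.

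The cluster lies on chromosome 10 of hg19, with AKR1C1 at 4934796 to 5025475 and AKR1C3 at 5077546 to 5149878 on the plus strand, and AKR1C2 between them at 5029967 to 5060223 on the minus strand. Within 200 kb of this span the table has 20 rows, 8 of which had any read. AKR1C4, the liver member of the family, AKR1C5P and AKR1C6P were at 0. AKR1E2 had 3 reads in each treatment, and AKR1CL1 had 0 and 1. The pseudogene AKR1C7P had 5 reads over the E2 libraries and 0 over the E2+DHT libraries. RP11-499O7.7, an antisense gene inside AKR1C2, was at 0 in all libraries. The lincRNAs RP11-445P17.3 and RP11-445P17.8 had at most 2 reads per treatment.

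**Figure D3:**
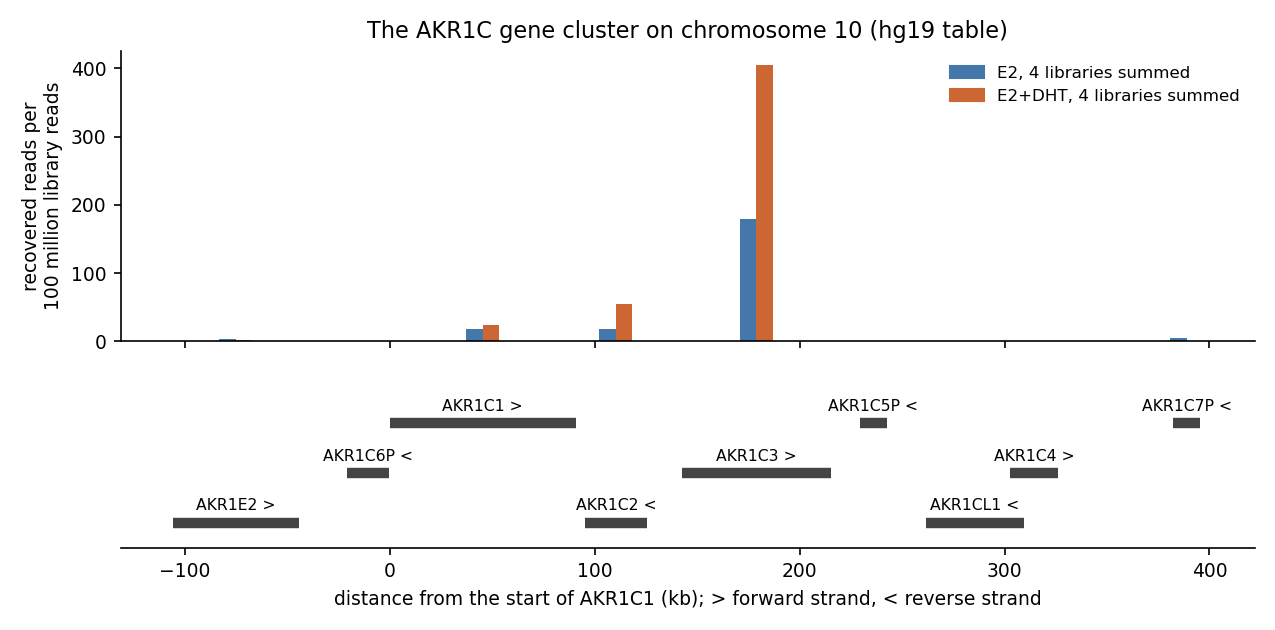
Upper panel, recovered reads scaled to library size, summed over 4 libraries per treatment, for the AKR1 genes and pseudogenes in the window; lower panel, their extents by distance from the start of AKR1C1 in kb. AKR1C3 carries most reads of the cluster in both treatments (178.9 on this scale with E2 and 405.5 with E2+DHT), followed by AKR1C2 and AKR1C1.

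Of the 5-alpha reductases, SRD5A1 and SRD5A3 were present at similar levels with and without DHT. SRD5A1 (chromosome 5, 6633456 to 6669675) had 4.19, 4.01, 4.92 and 4.14 RPKM in E2 replicates 1 to 4 and 4.64, 4.31, 4.62 and 4.66 RPKM in E2+DHT replicates 1 to 4. The highest library was an E2 library and the ranges overlapped, with a log2 fold change of 0.073 (standard error 0.0740, limma adjusted p = 0.999). On 1211 and 1598 summed reads the ratio was 1.07 (exact 95% binomial interval 0.993 to 1.15).

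SRD5A3 (chromosome 4, 56212276 to 56239263) had 5.52, 3.43, 4.12 and 4.08 RPKM in E2 replicates 1 to 4 and 4.42, 4.05, 4.08 and 4.25 RPKM in E2+DHT replicates 1 to 4. E2 replicates 1 and 2 were the highest and the lowest of all 8, and the E2+DHT libraries lay between them. Its log2 fold change was -0.0088 (standard error 0.114, limma adjusted p = 1.00), and without E2 replicate 1 it was 0.11. The antisense gene SRD5A3-AS1, which overlaps SRD5A3, stood at 0.115 ± 0.0125 RPKM with E2 against 0.0934 ± 0.0253 with E2+DHT (SD, n = 4 per group). The log2 ratio of SRD5A1 to SRD5A3 was 0.023 ± 0.271 in E2 and 0.10 ± 0.0431 in E2+DHT, a difference of 0.082 (two-sided exact permutation test, p = 0.771, smallest p possible 0.0286). This was the only 1 of 4 planned ratios whose genes both reached the minimum.

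SRD5A2, the 5-alpha reductase that dominates in the prostate, was close to absent. It had 7, 0, 2 and 3 reads in E2 replicates 1 to 4 and 2, 4, 2 and 5 in E2+DHT replicates 1 to 4, so the treatments overlapped. The summed ratio was 0.879 with an exact 95% binomial interval of 0.370 to 2.11. SRD5A1P1, a pseudogene of SRD5A1, was at 0 in all libraries.

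The enzymes at both ends of the pathway were at the limit of detection. HSD3B1 had 1 read in E2 replicate 2 and 1 each in E2+DHT replicates 1 and 4, a ratio of 1.62 with an exact 95% binomial interval of 0.0845 to 95.7. HSD3B2 had 2 reads in E2 replicate 2, 1 in E2 replicate 3 and 2 in E2+DHT replicate 1. CYP19A1 had 0 reads in all E2 libraries, and 1 read in E2+DHT replicate 1 and 2 in replicate 3. A count of 0 over the E2 libraries, 97820488 reads in all, allows up to 3 reads or 0.00364 RPKM of CYP19A1, so a difference in aromatase was not detectable at this depth. The relative HSD3B7, which acts in bile acid synthesis, was well measured at 9.43 ± 2.24 RPKM in E2 and 10.3 ± 0.899 in E2+DHT (SD, n = 4 per group, limma adjusted p = 0.999).

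Other enzymes around these 9 mostly did not pass either. Of 8 tested genes of early steroid synthesis 0 passed, 1 had an unadjusted p under 0.05 (limma), and the median log2 fold change was 0.080 against 0.014 over all tested genes. An unadjusted p under 0.05 was found in 4.47% of all tested genes (limma). CYB5A, the cytochrome that aids androgen synthesis, stood at 9.00 ± 0.391 RPKM with E2 against 10.1 ± 0.388 with E2+DHT (SD, n = 4 per group, limma adjusted p = 0.985), without overlap, as did 1.98% of tested genes in this direction. The first enzymes of the pathway were near 0, CYP11A1 at 0 in E2 and 0.00208 RPKM in E2+DHT and CYP17A1 at 0.0172 and 0.00445 RPKM.

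Of 14 tested genes of androgen and estrogen oxidation and conjugation, UGDH rose, 0 fell and 13 did not pass (median log2 fold change 0.061). UGDH, which supplies the sugar for glucuronidation, went from 9.45 ± 0.428 to 19.0 ± 0.969 RPKM (SD, n = 4 per group, log2 fold change 0.97, limma adjusted p = 0.000244). UGDH also stands in a list of androgen reference genes chosen on these samples, so its rise is not independent evidence. The most abundant genes of this list were CYP1B1 and CYP1A1, which hydroxylate estrogens, with 188.8 ± 40.0 and 87.3 ± 37.5 RPKM in E2. Their log2 fold changes were -0.036 and 0.056 (limma adjusted p = 0.999 for both). Of 7 tested relatives of the 9 enzymes 0 passed and 0 had an unadjusted p under 0.05 (limma), with log2 fold changes from -0.075 for AKR1B1, an aldose reductase, to 0.15 for HSD3B7.

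Of 6 tested prostaglandin genes 0 passed and 0 had an unadjusted p under 0.05 (limma, median log2 fold change -0.028). PTGES3, a co-chaperone also known as a prostaglandin synthase, was the most abundant with 57.8 ± 7.46 RPKM in E2 and 55.7 ± 5.81 in E2+DHT. Targets of NRF2, the oxidative stress factor known to drive AKR1C genes in human cells, gave 0 of 23 past the threshold and 1 with an unadjusted p under 0.05 (limma, median log2 fold change 0.037), against 4.47% of all tested genes. That gene was OSGIN1, with 3.72 ± 0.455 RPKM in E2 and 4.62 ± 0.454 in E2+DHT (SD, n = 4 per group, limma adjusted p = 0.758). NQO1, a standard target of NRF2, had 191.9 ± 25.1 and 182.1 ± 5.99 RPKM (limma adjusted p = 0.999).

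Of 19 tested genes of dolichol and N-glycan precursor synthesis, the pathway of SRD5A3, 0 passed and 1 had an unadjusted p under 0.05 (limma, median log2 fold change 0.022), against 4.47% of all tested genes. That gene was DPM1, a mannose transferase, at 34.5 ± 1.23 RPKM in E2 and 31.1 ± 0.713 in E2+DHT (SD, n = 4 per group, limma adjusted p = 0.999), without overlap, as were 1.42% of tested genes in this direction. Of 6 tested regulators of the aromatase gene 0 passed and 0 had an unadjusted p under 0.05 (limma, median log2 fold change 0.035). The estrogen receptor gene ESR1, which did not pass, stood at 6.82 ± 0.792 RPKM with E2 against 5.52 ± 0.525 with E2+DHT (SD, n = 4 per group, limma adjusted p = 0.761). PGR, the progesterone receptor, had 5.39 ± 0.982 and 3.57 ± 0.282 RPKM (limma adjusted p = 0.158), also lower with DHT without overlap, within the same 1.42%.

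**Figure D4:**
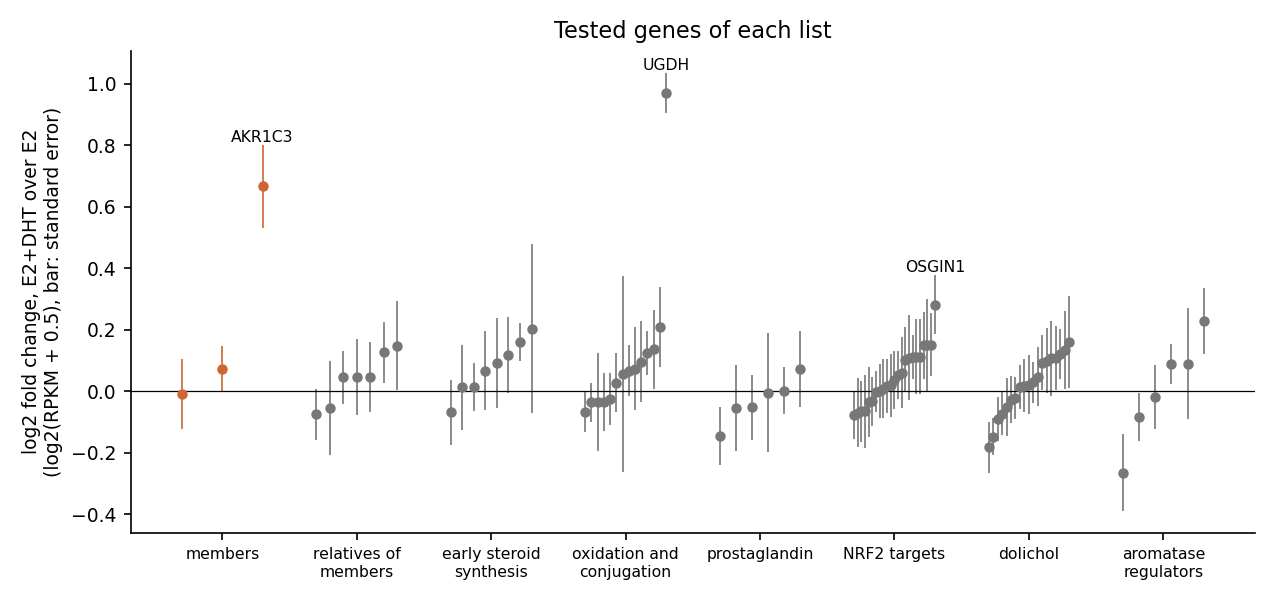
Log2 fold change of E2+DHT over E2 with its standard error for the tested genes of the enzyme and regulator lists, the 3 tested members in orange at the left and the other genes in grey. AKR1C3 (0.67) and UGDH (0.97) stand above the rest of their lists.

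AKR1C3 can be set beside FKBP5, a reference gene chosen on these samples, which is not independent evidence. FKBP5, a co-chaperone of steroid receptors, stood at 0.785 ± 0.0897 RPKM with E2 against 2.20 ± 0.264 with E2+DHT (SD, n = 4 per group, limma adjusted p = 0.000727). Its ratio of means was 2.81, against 2.36 for AKR1C3, while the SD of AKR1C3 in E2 was a larger part of its mean. The 5 tested genes whose log2 values, centred on their mean, differed least from those of AKR1C3 over the 8 libraries were PISD, PPIF, TMEM164, ZNF652 and CSRNP1. The root mean square difference ran from 0.061 for PISD, a mitochondrial phospholipid enzyme, to 0.12 for CSRNP1, a nuclear protein, against an SD of 0.41 for AKR1C3 itself. PPIF is a mitochondrial cyclophilin, and its mean went from 24.8 to 39.0 RPKM. These 5 genes were picked for likeness to AKR1C3 over the same libraries, so their treatment differences follow from the choice. Of them CSRNP1 passed the threshold (limma adjusted p = 0.0337), against 0.185% of all tested genes. The other 4 had limma adjusted p between 0.0724 and 0.144.

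The direction of AKR1C3 depended on the reading of the labels. Grouped by library name, FKBP5 had 0.652 to 0.841 RPKM in E2 and 1.91 to 2.55 in E2+DHT, and all 6 androgen reference genes were higher without overlap, though they were chosen on these samples under that grouping. Grouped by title, FKBP5 had 0.652, 2.55, 0.813 and 2.19 RPKM in E2 and 0.835, 1.91, 0.841 and 2.15 in E2+DHT, which overlap. In the 4 records whose title and library name agree, AKR1C3 had 0.553 and 0.251 RPKM in E2 against 0.691 and 0.775 in E2+DHT. There AKR1C2 had 0.0309 and 0.0194 RPKM in E2 against 0.0667 and 0.0824 in E2+DHT, without overlap in either gene. With so few libraries per treatment a gap arises easily, and its share over all genes was not tested. Fitted on these 4 records, AKR1C3 moved by 0.47 on the log2 scale and did not pass (limma, adjusted p = 0.9999). With groups taken from the titles instead, the log2 fold change of AKR1C3 was -0.20 (limma adjusted p = 1.00). Each title group mixes E2 and E2+DHT libraries by library name, so that fit does not compare the library-name treatments.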

How the data were processed

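RNA from 8 libraries was read as paired ends of 100 bases after a stranded total RNA kit, per the labels' protocols. The authors deposited RPKM values, 1 column per library, on genome build hg19 per the submitters' processing notes. Aligner, counter, strand use and annotation release: not given in the sources used here. Whole reads were recovered for 27594 genes above 0 (100%, within 0.0001 reads), from 1 exon length per gene and 1 denominator per library. Library sizes are these denominators, and the shortest fitting length was taken, so recovered reads of genes with very few reads may be too low. Intervals and limits on 0 cover counting error only.

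Values were compared as log2(RPKM + 0.5) in 11375 genes with a mean of at least 0.5 RPKM, using limma 3.58.1 in R 4.3.3 (intensity trend, two-sided, Benjamini-Hochberg over all tested genes, threshold 0.05), without a replicate block. The code was tested on simulated data. Alignments used Biopython 1.88, exact tests SciPy 1.17.1, tables NumPy 2.4.6 and pandas 2.3.3 in Python 3.11.15, and plots matplotlib 3.10.9. Promoters are RefSeq's on GRCh38.p14, transcripts GENCODE 29's. The members and lists were chosen with earlier results of these data known. Named besides the 9 genes were, per list, those past the threshold, the 3 lowest in p and the 3 highest in level, all rows within 200 kb of the AKR1C genes, and the 5 genes most like AKR1C3; of these the text gives those its results turn on, and some genes are not reported here. Alternatives were other pseudocounts, filters, centring, no trend, a replicate block, other readings of the labels, leaving out each library and, chosen after seeing the data, voom on recovered reads.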

Additional observations from a re-analysis of the deposited data

Results flagged for a closer look

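Dixon's outlier test at 95% was run in 28 groups of 4 libraries (by treatment, the 9 genes, FKBP5, C1orf116, library size, exon share and the SRD5A1 to SRD5A3 ratio). It marked 1 library in 5 of them, and chance marks about 1 group in 20. That rate does not apply to HSD3B1 and HSD3B2, where a lone library above 0 is always marked. For AKR1C1 with E2+DHT, replicate 2 stood at 0.00541 RPKM, from 1 read, and the others at 0.0266 to 0.0307. For SRD5A1 with E2+DHT, replicate 2 stood at 4.31 RPKM and the others at 4.62 to 4.66. HSD3B1 in E2 was 0.0160 RPKM in replicate 2, from 1 read, against 0 in the others. HSD3B2 in E2+DHT was 0.0247 RPKM in replicate 1, from 2 reads, against 0. For FKBP5 with E2, replicate 1 stood at 0.652 RPKM and the others at 0.813 to 0.841.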

How the results depend on the processing

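AKR1C3 was higher with DHT in all 8 fits that left out 1 library, with log2 fold changes of 0.58 to 0.76 (limma adjusted p 0.0702 to 0.414), and passed in 0 of them. Pseudocounts of 0.1 and 1 moved its log2 fold change to 1.07 and 0.46 without a call. It turned to -0.20 with groups from the record titles. Each title group mixes E2 and E2+DHT libraries by library name, so that fit does not compare the library-name treatments. Which labels are right was not tested. Libraries of both treatments share replicate numbers, and the correlations of their deviations were 0.703, 0.455, 0.121 and 0.0833 for numbers 1 to 4. E2+DHT replicates 1, 2 and 4 each correlated best with the E2 library of their own number, and E2+DHT replicate 3 with E2 replicate 4 (0.216). From the other side, E2 replicates 1 and 2 correlated best with their own number. E2 replicate 3 had 0.121 with its own number against 0.12 with E2+DHT replicate 1, and E2 replicate 4 correlated best with E2+DHT replicate 2 (0.329). As not all same-number values were over 0.1, the numbers were not taken as a pairing, though a pairing in part was not tested. With the replicate number as a block, AKR1C3 passed (log2 fold change 0.67, limma adjusted p = 0.0157), the only 1 of the 3 tested enzymes to do so, as did 72 of 11375 genes. With the block in voom on genes of at least 10 reads it was 1.22 (limma adjusted p = 7.5e-05), again as the only 1 of the enzymes fitted. HSD3B1, HSD3B2 and CYP19A1 had too few reads for that fit. In it AKR1C2 had a limma adjusted p of 0.0577 and SRD5A2 went from 0.16 to -0.17. Signs of values near 0 also turned: SRD5A3 ran from -0.098 to 0.11 without single libraries, and was 0.11 without E2 replicate 1, 0.0065 without E2+DHT replicate 2 and 0.0033 without E2+DHT replicate 3, and the SRD5A1 to SRD5A3 ratio ran from -0.045, without E2 replicate 1 (exact p = 0.457), to 0.15 without E2 replicate 3. Over all genes 21 passed (20 higher, 1 lower). The count was 5 with no filter, where more genes share the adjustment, 33 (29 higher, 4 lower) after median centring, 72 (62 higher, 10 lower) with the replicate block (184 of 18141 genes in its voom form), 2 with groups from titles, 0 by limma in the 4 records with matching labels (286 had an unadjusted p under 0.05), and 6 to 18 without single libraries. Depth limits AKR1C1, AKR1C2, SRD5A2, HSD3B1, HSD3B2 and CYP19A1, each with 82 reads or fewer in all.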

Other observations

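Some genes under the test minimum had treatments without overlap and were picked out after their values were seen, so they are descriptions only. They were outside the main test. Those with at least 10 reads were in the voom fit, whose values for them are not reported here. Of the genes under the minimum with at least 10 reads, 1.77% were higher with DHT without overlap. UGT2B28, which attaches glucuronic acid to androgens, and UGT2B11 are close copies of other UGT2B genes. UGT2B28 and UGT2B11 had 0.0111 ± 0.0135 and 0.0174 ± 0.0211 RPKM in E2 and 0.279 ± 0.0760 and 0.193 ± 0.0747 in E2+DHT (SD, n = 4 per group). NR5A2, a nuclear receptor known to act on the aromatase gene in other tissues, had 0.0798 ± 0.00725 and 0.111 ± 0.0121 RPKM. PTGIS, prostacyclin synthase, had 0.0184 ± 0.00766 and 0.0347 ± 0.00832 RPKM. The pseudogene AKR1C7P lay the other way, with 0.0610 ± 0.0332 RPKM in E2, from 5 reads, and 0 in E2+DHT. With fewer than 10 reads and the opposite direction, it falls outside the share of 1.77%.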
